A study of Mus musculus with 30 samples.

Results

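The step from Del(CBS1-4) to Del(CBS1-5) adds the mutation of the CTCF binding site CBS5 to a mouse Hoxd cluster in which CBS1, CBS2, CBS3 and CBS4 are already mutated on the same chromosome. Its members were all libraries labelled with either allele: 2 CTCF and 2 RAD21 libraries of each, 8 of the 30 libraries of the series, with 359819 of the 1350341 peaks called on the main chromosomes. Every library was made from the trunk of an E10.5 embryo on a B6CBAF1 background, by ChIPmentation, a chromatin immunoprecipitation in which the Tn5 transposase adds the sequencing adapters while the chromatin is on the beads. Del(CBS1-4) and Del(CBS1-5) embryos were homozygous for their allele and came from crosses of carriers, so both groups share the mutations of CBS1 to CBS4 and differ, by their labels, in CBS5. The other 22 libraries (wild type, WT, Del(CBS1), Del(CBS2), Del(CBS1-2) and Del(CBS1-3), of the same stage and tissue) stand below as context. Embryos were dissociated one by one, and whether a CTCF and a RAD21 library came from the same embryo is not given in the sources used here. A trunk holds many cell types, so a weaker peak can mean fewer cells with the bound site or less binding per cell, which cannot be told apart in bulk chromatin, and peaks of these proteins offer no check of the tissue label.

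CTCF is a zinc-finger protein that binds an asymmetric DNA motif, and cohesin, the ring complex of which RAD21 is a subunit, accumulates at many CTCF sites because CTCF halts the extrusion of chromatin loops. The Hoxd genes are switched on one after the other along the cluster in the growing trunk, from Hoxd1 towards Hoxd13, and the CTCF sites between them are known as insulators within the cluster. The genes at the Hoxd13 end also receive regulation from one flanking landscape in distal limb and genitalia, and those at the Hoxd1 end from the other.

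The labels give no position for the mutated sites. Each was therefore placed at the WT CTCF peak that was missing from the mutant libraries expected to lack it, over all 14 CTCF libraries. CBS5 fell at position 74686497 of chromosome 2 (mm10), within the annotated spans of Hoxd11 and Hoxd10, and 0 libraries deviated from its pattern. CBS4 lay 5.3 kb away at 74691779, and CBS3 7.7 kb away at 74694237, both with 0 libraries off pattern. CBS2 lay 15.9 kb and CBS1 29.4 kb away, with 3 and 2 libraries off pattern. The gene table used gives spans only, so exon and intron were not assigned.

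The reference sequences of 3 promoters of the cluster show the DNA under the peaks that stand beside CBS5. They are the 250 bases upstream of the start sites of Hoxd10 (chr2:74691641-74691890, plus strand), which holds CBS4 and had no peak in any of the 8 libraries, of Hoxd9 (chr2:74697513-74697762, plus strand), where a weak CTCF peak stood in both Del(CBS1-5) libraries, and of the antisense gene Hoxd3os1 (chr2:74716131-74716380, minus strand), where a CTCF peak remained in all 4 libraries. They are RefSeq sequences of GRCm38.p6 (the mm10 build), written 5′ to 3′ on the strand of the gene, and the 41 capitals mark the bases around the CTCF site. No sequence of the mutant alleles was used.
Hoxd10: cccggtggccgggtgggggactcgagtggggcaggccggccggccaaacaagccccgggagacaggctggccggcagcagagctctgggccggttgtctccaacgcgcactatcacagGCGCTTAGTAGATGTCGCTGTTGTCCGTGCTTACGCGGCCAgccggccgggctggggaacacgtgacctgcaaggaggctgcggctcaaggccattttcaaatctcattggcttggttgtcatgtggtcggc
Hoxd9: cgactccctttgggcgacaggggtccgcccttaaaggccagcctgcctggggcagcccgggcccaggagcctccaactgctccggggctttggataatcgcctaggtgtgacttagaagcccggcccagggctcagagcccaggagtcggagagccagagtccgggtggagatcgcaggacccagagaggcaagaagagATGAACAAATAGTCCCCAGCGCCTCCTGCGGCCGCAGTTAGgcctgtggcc
Hoxd3os1: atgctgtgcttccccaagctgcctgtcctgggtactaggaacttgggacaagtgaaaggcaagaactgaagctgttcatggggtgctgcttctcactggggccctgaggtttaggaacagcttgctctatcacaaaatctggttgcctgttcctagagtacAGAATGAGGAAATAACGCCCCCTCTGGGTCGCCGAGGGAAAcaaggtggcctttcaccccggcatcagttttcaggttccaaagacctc

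A core of the CTCF motif, written CCNNNAGNNGGC and searched on both strands, occurs once in the Hoxd3os1 stretch, inside the capitals, at positions 74716192 to 74716203, where it reads CCCAGAGGGGGC on the strand of the motif. It has 0 matches in the Hoxd10 and Hoxd9 stretches. These letters occur in 7.17% of 32851 promoter stretches of the same length, and the spelling was settled after other spellings had been tried on these promoters. A match is a description of letters, not of binding.

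At CBS5 itself the CTCF peak was present in both Del(CBS1-4) libraries, with fold enrichments over local background of 7.37 and 6.10 and −log10 q values of 32.9 and 33.8. No CTCF peak covered the site in either Del(CBS1-5) library. The site had a CTCF peak in 10 of the 10 libraries of other alleles, with folds of 13.0, 9.66 and 11.83 in WT and between 4.54 and 15.04 in the rest. To compare libraries, each fold was also placed as a percentile among the sites with a peak in every library of the antibody, with 0 for no peak. On that scale CBS5 stood at 50.2 and 32.9 in Del(CBS1-4) and at 55.8 to 58.7 in WT. Because this pattern located CBS5, its CTCF loss is a description and was not tested.

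RAD21 played no part in placing CBS5. The RAD21 peak there had folds of 6.07 and 5.01 in Del(CBS1-4) (percentiles 12.4 and 5.1) and was missing from both Del(CBS1-5) libraries. The groups did not overlap, and the 2-sided exact permutation p of 0.3333 is the smallest that 2 libraries against 2 can give. Among the other alleles RAD21 covered CBS5 in 7 of 12 libraries: 2 of 4 WT (folds 2.41 and 4.25), 1 of 3 Del(CBS1) (4.34), both Del(CBS1-2) (5.47 and 4.64), both Del(CBS1-3) (3.84 and 4.46) and not in the 1 Del(CBS2) library. The highest of all these folds was that of the first Del(CBS1-4) library. The RAD21 lists of Del(CBS1-5) were also the shorter ones, a difference described below that touches every RAD21 site missing from that allele. When the same number of top peaks (16627) was taken from each RAD21 list, CBS5 still had a RAD21 peak in both Del(CBS1-4) libraries and in neither Del(CBS1-5) library.

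**Figure D1:**
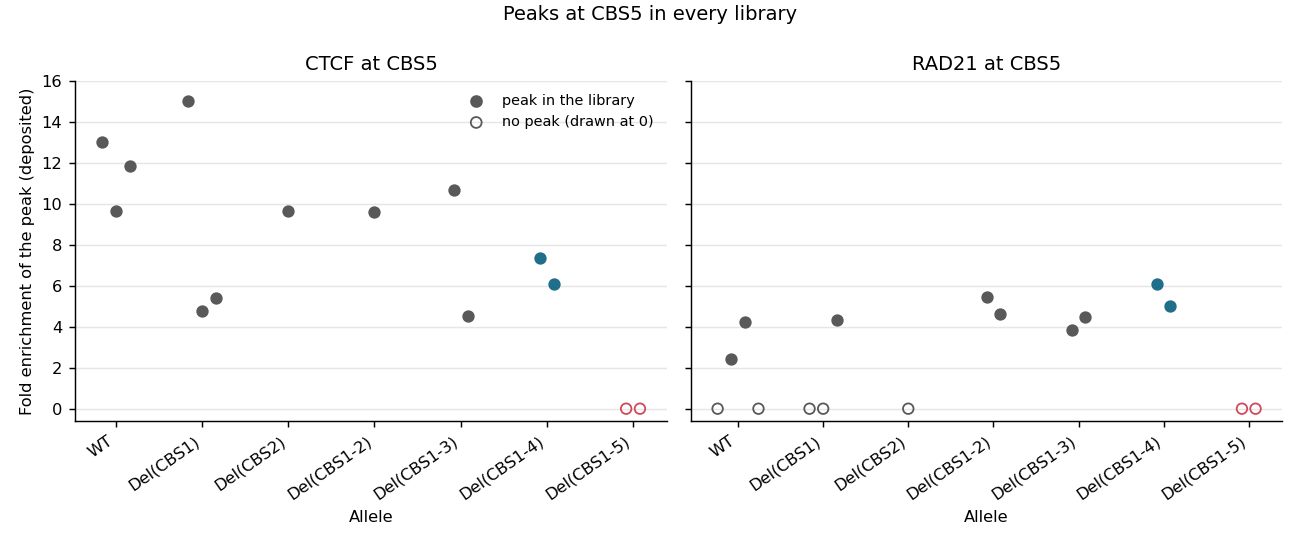
Fold enrichment of the CTCF peak (left) and the RAD21 peak (right) at CBS5 in each library, by allele; filled points are peaks and open points at 0 are libraries without a peak there. Both antibodies have a peak in the 2 Del(CBS1-4) libraries and none in the 2 Del(CBS1-5) libraries, and RAD21 is also without a peak in 2 of 4 WT libraries.

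CBS5 was the one site of the Hoxd cluster that went from both libraries of one allele to neither of the other. The window examined spans the cluster with 20 kb added past Evx2 on one side and past Hoxd1 on the other (chromosome 2, 74632989 to 74785142). It held 18 CTCF sites of these alleles, 10 held by both Del(CBS1-4) libraries and 10 by both Del(CBS1-5) libraries. Of these, 1 was lost (found in both Del(CBS1-4) and neither Del(CBS1-5) library) and 0 were gained (the reverse). Across the genome 2.79% of the CTCF sites of Del(CBS1-4) were lost and 14.9% of those of Del(CBS1-5) were gained. For RAD21 the window held 8 sites, of which 1 was lost and 0 were gained, against 24.0% and 0.36% across the genome. The lost site was CBS5 for both antibodies under each of the detection rules tried, though the CTCF loss was what placed CBS5. The other sites that joined it under some rules (74656225 and 74747804 for CTCF, 74706128, 74716413 and 74747525 for RAD21) were weak, at CTCF percentiles of 5.3 or less or RAD21 percentiles of 0.5 or less in Del(CBS1-4).

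At the positions of the 4 sites that both alleles lack, little or nothing was called. CBS3 and CBS4 had no peak of either antibody in the 8 libraries. CBS4 had carried RAD21 in 12 of 12 libraries of the other alleles, with a mean percentile of 41.4 ± 19.2 (SD, n = 4) in WT. CBS3 had a RAD21 peak in 0 of these 12 libraries, so its lack of RAD21 was not particular to the 2 alleles. The position of CBS2 had a weak CTCF peak in the first Del(CBS1-5) library (fold 5.25, percentile 5.2) and none in the other 3. Weak RAD21 peaks stood there in the second Del(CBS1-4) library (3.80) and in the first Del(CBS1-5) library (3.85), so the alleles did not differ in their number. The summit of CBS1 was covered by a CTCF peak in 1 Del(CBS1-4) library and by none of RAD21. That peak was weak (mean CTCF percentile of 2.5 in Del(CBS1-4)) and may be the one of the nearby Hoxd3os1 site described next.

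The CTCF site in the Hoxd3os1 promoter, 29.7 kb from CBS5 and printed above, had folds of 4.27 and 3.67 in Del(CBS1-4) and of 6.05 and 6.85 in Del(CBS1-5). Its percentiles were 10.2 and 5.0 against 9.2 and 12.9, so the groups overlapped, and the rank test described below gave a score difference of 0.23 ± 0.40 (SE; limma, adjusted p = 0.941). RAD21 did not cover this site in any of the 8 libraries. With only peaks of a −log10 q of at least 10 it counted as gained, since its −log10 q values were 6.6 and 5.8 in Del(CBS1-4) and 20.5 and 21.5 in Del(CBS1-5). In WT the position lies under the CBS1 peak, so its WT value is not one of this site alone.

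The Hoxd9 promoter carried a CTCF peak in both Del(CBS1-5) libraries, with folds of 3.56 and 6.66 (percentiles 0.8 and 11.6). Of the Del(CBS1-4) libraries the first had none and the second a fold of 2.44 (percentile 0.3). The groups did not overlap (exact permutation p = 0.3333, the smallest possible), and 3 of the 10 other CTCF libraries had a peak there, 1 of them WT. RAD21 had no peak there in any of the 16 RAD21 libraries. With the same number of top peaks (50445) per CTCF list, or with the same −log10 q limit, this site counted as gained.

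On the Hoxd13 side of CBS5 the peaks were kept. The strongest CTCF site of the window, 1488 bp from Hoxd13, had percentiles of 87.6 and 66.3 in Del(CBS1-4) and of 76.2 and 87.0 in Del(CBS1-5), and 82.2 ± 13.2 (SD, n = 3) in WT. The score difference was 0.13 ± 0.49 (SE; limma, adjusted p = 0.976). RAD21 stood there at 64.7 and 65.4 against 38.7 and 69.4, with a score difference of −0.28 ± 0.44 (adjusted p = 0.807). The ranges overlapped between alleles for both antibodies.

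Beside Evx2, the homeobox gene next to Hoxd13, the CTCF site at 74663789 had percentiles of 14.9 and 16.5 in Del(CBS1-4) and of 25.5 and 25.9 in Del(CBS1-5). The score difference was 0.36 ± 0.33 (adjusted p = 0.861), and WT averaged 26.2 ± 6.55 (SD, n = 3). The CTCF site at 74661920 went the other way, from 11.7 and 9.6 to 5.3 and 7.2 (−0.29 ± 0.35, adjusted p = 0.903). At that same site the RAD21 percentiles were 31.5 and 26.5 in Del(CBS1-4) and 55.3 and 70.1 in Del(CBS1-5), and the groups did not overlap. The difference did not pass (0.88 ± 0.46, limma, adjusted p = 0.347), and the WT libraries spread from 12.2 to 57.2. Within Evx2, the site at 74655512 was at 33.2 and 9.7 against 23.9 and 34.3 (adjusted p = 0.899). In all, 0 sites of the window were called by the rank test for either antibody, beside 0.0505% of all CTCF and 0.648% of all RAD21 sites tested.

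**Figure D2:**
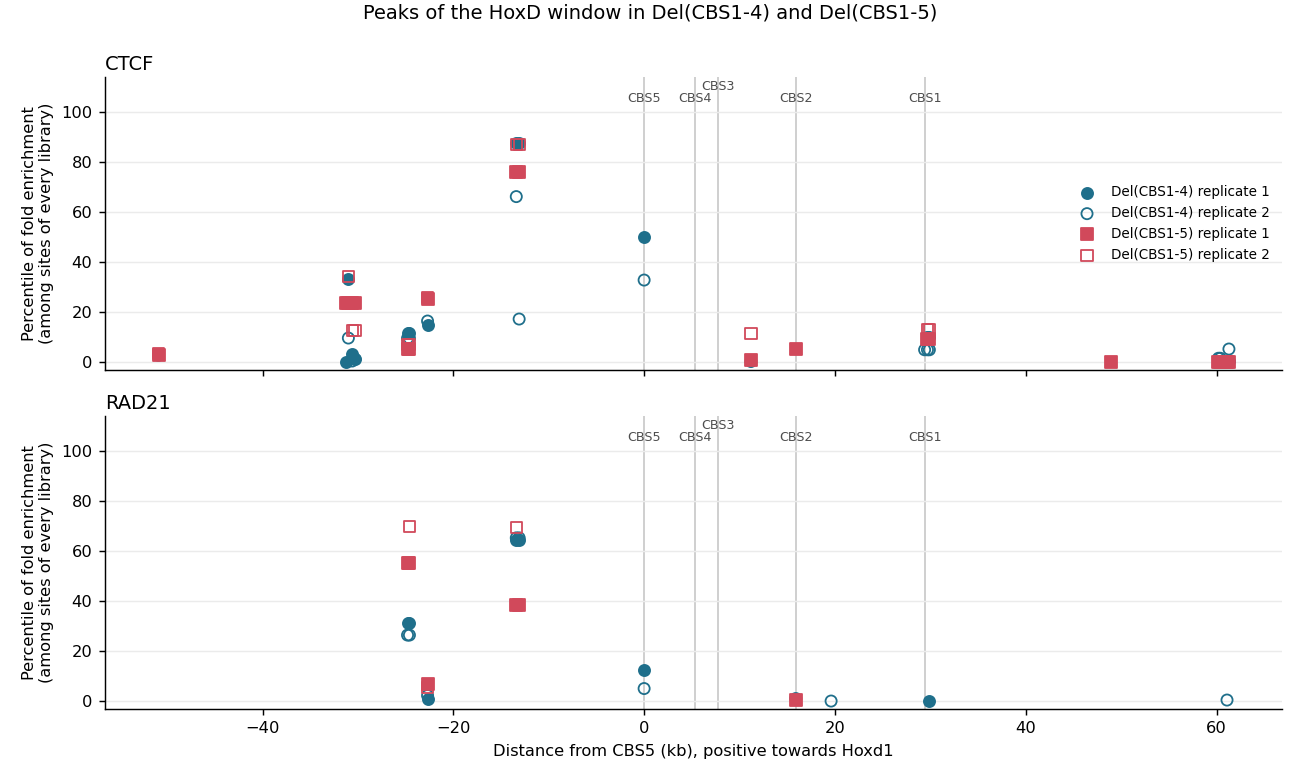
Percentile of fold enrichment of each CTCF (top) and RAD21 (bottom) peak of the Hoxd window, against its distance from CBS5 in kb, for the 2 Del(CBS1-4) libraries (circles) and the 2 Del(CBS1-5) libraries (squares); replicate 2 is open, and grey lines mark the 5 mutated sites. Neighbouring sites covered by 1 wide peak share its value. At 0 kb only circles are drawn, at 50.2 and 32.9 for CTCF and at 12.4 and 5.1 for RAD21.

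Around CBS5 the RAD21 sites shared by both libraries of an allele lay far apart. In Del(CBS1-4) the RAD21 sites found in both libraries on either side of CBS5 were the one near Hoxd13, 13.4 kb away, and one within Mtx2, 139.8 kb away, with CBS5 between them. In Del(CBS1-5) the next site found in both libraries on the Hoxd1 side was 278.1 kb away, near Gm14427, which left 291.5 kb without a shared RAD21 site. The Mtx2 site was weak, with folds of 3.16 and 3.65 in Del(CBS1-4) and of 4.10 in the first Del(CBS1-5) library. Taken library by library, the first RAD21 peak on the Hoxd1 side lay 29.9 and 15.9 kb from CBS5 in Del(CBS1-4) and 15.9 and 278.0 kb away in Del(CBS1-5), so the groups overlapped. In the 12 libraries of other alleles it lay 5.2 to 5.4 kb away, at CBS4. For CTCF the first peak on that side lay 29.8 and 11.2 kb away in Del(CBS1-4) and 11.2 and 11.3 kb away in Del(CBS1-5).

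In the landscapes flanking the cluster no change passed the test, which 0.0505% of all CTCF and 0.648% of all RAD21 sites tested passed. Between Atp5g3 and Evx2, 0 of 11 CTCF sites of Del(CBS1-4) were lost and 1 of 16 of Del(CBS1-5) was gained. Between Hoxd1 and Hnrnpa3, 0 of 19 were lost and 5 of 23 were gained, beside the 2.79% lost and 14.9% gained across the genome. All 6 gained sites were weak, at percentiles of 0.1 to 5.0 in Del(CBS1-5). For RAD21 0 of 6 sites were lost on the Atp5g3 side and 0 of 10 on the Hnrnpa3 side, beside 24.0% across the genome, and 0 of 6 and 0 of 7 were gained. The median score difference of the tested CTCF sites was 0.09 over 8 sites on the Atp5g3 side and −0.11 over 13 sites on the Hnrnpa3 side, beside −0.00 over all 31658 sites tested. For RAD21 it was −0.04 over 4 sites and −0.12 over 7, beside 0.02 over all 12959. Strong sites stood on both sides in all 4 libraries: the CTCF site at 74066822 stood at 98.4 and 98.4 against 98.5 and 96.6, and the one at 74964568 at 98.2 and 99.0 against 99.2 and 98.3. The largest CTCF difference of the landscapes was at 75588768, within Gm50595, where CTCF stood at 47.8 and 49.4 in Del(CBS1-4) and at 11.8 and 19.5 in Del(CBS1-5) (−0.99 ± 0.36, limma, adjusted p = 0.482). RAD21 at that site, 68.4 and 88.9 in Del(CBS1-5) against 56.7 and 63.5, was higher (0.59 ± 0.36, adjusted p = 0.439). RAD21 at 75312401 was at 66.9 and 88.0 against 44.2 and 26.5 (−1.19 ± 0.41, adjusted p = 0.149).

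The length of the peak lists separated the alleles, in opposite directions for the 2 antibodies. The CTCF lists of Del(CBS1-4) held 50445 and 55829 peaks and those of Del(CBS1-5) 73839 and 58257. The RAD21 lists held 37031 and 41097 against 26694 and 16627. The peaks of Del(CBS1-4) were also wider (medians of 593 and 586 bp against 512 and 492 for CTCF, 499 and 478 against 399 and 341 for RAD21), and more of their intervals held several summits (11.7% and 13.5% against 6.37% and 2.88% for CTCF). Read depth behind the lists is unknown, and what part these differences had in the counts that follow was not tested beyond the equal-length lists given beside them.

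Genome-wide, 46168 CTCF sites were found in both Del(CBS1-4) libraries and 57885 in both Del(CBS1-5) libraries, with 42158 in all 4. Of the former 1287 were lost and of the latter 8648 were gained, the shares given above. As the replicate error of such counts, 27.4% of the CTCF sites seen in Del(CBS1-4) and 30.9% of those seen in Del(CBS1-5) were found in only 1 of the 2 replicates. For RAD21 the 2 libraries shared 31244 sites in Del(CBS1-4) and 15553 in Del(CBS1-5), with 7500 lost and 56 gained, and 35.8% and 44.6% were found in 1 replicate only. With equal-length lists the CTCF counts became 1527 lost and 3560 gained, and the RAD21 counts 1398 lost and 492 gained. A site takes the value of the covering peak whose summit is nearest, and in a wide peak that summit can be far away. Of the 1287 lost CTCF sites 834 had a summit more than 150 bp away in at least 1 library that held them, and of the 7500 lost RAD21 sites 2017. With only sites whose summits lay within 150 bp in both libraries of the allele that held them, 453 of 40892 CTCF sites (1.11%) were lost and 7995 of 53400 (15.0%) gained, and 5483 of 28434 RAD21 sites (19.3%) were lost and 55 of 15382 (0.358%) gained. Over all sites loss was more frequent among weak ones. With the sites of both Del(CBS1-4) libraries cut into 4 equal bins of mean fold, from weakest to strongest, 6.07%, 3.27%, 1.71% and 0.0953% of CTCF sites and 60.6%, 29.3%, 5.76% and 0.333% of RAD21 sites were lost.

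The losses at CBS5 were read against that background. Its CTCF peak lay in the third of these bins, where 197 of 11542 sites (1.71%) were lost, and ranked 103 of 1287 lost sites by mean fold and 7 by the lower of the 2 folds. Its own CTCF summits lay 8 and 9 bp from the site, and among the 453 lost sites with near summits it ranked 8 by mean fold. Of the 31732 CTCF sites found in both Del(CBS1-4) libraries and in all 10 other libraries, it was the 1 that was lost. CBS5 was placed by this same pattern, so only the absence of other sites is informative in this count. That count was 273 when a summit had to lie within 100 bp of the site, 2 with a −log10 q of at least 10, 3 with equal-length lists and 74 without the first Del(CBS1-5) library. Its RAD21 peak lay in the second, where 2290 of 7811 sites (29.3%) were lost. Among the 1025 RAD21 sites found, like CBS5, in both Del(CBS1-4) libraries and 7 of 12 other libraries, 663 (64.7%) were lost, so a RAD21 loss of this kind was common in these lists.

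**Figure D3:**
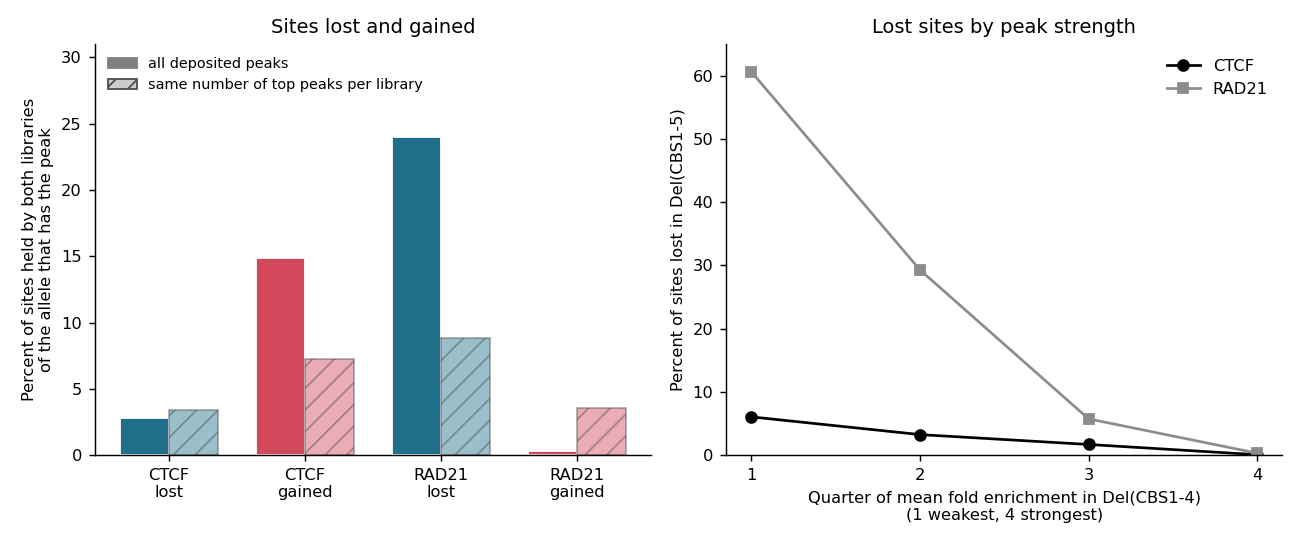
Left, percent of sites lost (of those in both Del(CBS1-4) libraries) or gained (of those in both Del(CBS1-5) libraries) for each antibody, with all deposited peaks (solid) and with the same number of top peaks per library (hatched); right, percent of sites lost in each of 4 equal bins of mean fold enrichment. RAD21 losses run from 60.6% in the weakest bin to 0.333% in the strongest, and CTCF gains go from 14.9% to 7.24% with equal-length lists.

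Among the 453 lost CTCF sites with near summits, a site within Slc15a2, which encodes a peptide transporter, was the strongest. Its CTCF folds were 8.65 and 14.77 and its RAD21 folds 6.10 and 14.44 in Del(CBS1-4), with no peak of either antibody in Del(CBS1-5), and 8 of 10 other libraries had a CTCF peak there. Sites 179 bp from Mterf1b, a mitochondrial transcription termination factor gene (8.06 and 7.27), within Cntnap5b, a neurexin-family gene (9.25 and 5.68), near P4ha1, a collagen prolyl hydroxylase gene (6.61 and 8.22), within Akap9 (6.30 and 7.92), within Gm18126 (7.67 and 6.01) and within Slc12a1 on chromosome 2, a kidney cotransporter gene (6.40 and 7.20), stood between it and CBS5. The Mterf1b, Akap9 and Slc12a1 sites were in 9 of 10 other libraries, those at Gm18126, P4ha1 and Cntnap5b in 5, 2 and 1. With all lost sites ranked by mean fold, 7 sites with distant summits came high in the order, within or near 2610316D01Rik, Tbc1d9, Tmem135, Vmn2r90, Opalin, Gm21321 and Adk. At each of them the higher of the 2 Del(CBS1-4) folds belonged to a summit 345 to 520 bp away, so these are not described as lost binding of that strength. In all, 94 of the 1287 lost CTCF sites had a RAD21 peak lost as well, 7.30%, beside 8.78% of the CTCF sites found in all 4 libraries. These shares are over sites that differ in how often they held RAD21 at all. RAD21 was in none of its 4 libraries at 76.6% of the lost CTCF sites, beside 26.8% of those in all 4. It was in all 4 at 1 lost CTCF site (0.0777%), beside 35.7%.

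The 8 strongest gained CTCF sites were found in 3 of 3 WT libraries. The site within Skint11 had CTCF folds of 18.05 and 20.80 and RAD21 folds of 5.90 and 7.84 in Del(CBS1-5), with no peak of either in Del(CBS1-4). Of the 10 other CTCF libraries 8 had a peak there. Sites near Olfr1069-ps1 (17.71 and 19.92), near Apol7e (16.87 and 20.63), within Tlr6, a Toll-like receptor gene (15.60 and 17.20), within Gm13284 (14.40 and 16.81) and near Gm13286 (14.10 and 17.04) followed, also with no CTCF peak in Del(CBS1-4). All but the Olfr1069-ps1 site, which 3 of 10 other libraries held, were in 8 or 9 of 10. Skint, Apol7 and olfactory receptor genes form families of similar copies, where the assignment of reads to one copy is uncertain, and its part in these counts was not tested. CTCF was gained at 0.202% of the RAD21 sites found in all 4 libraries, and RAD21 at 0.0427% of the CTCF sites found in all 4. RAD21 was gained with CTCF at 15 sites, 26.8% of the 56 gained RAD21 sites and 0.173% of the gained CTCF sites. One of them lay 1196 bp from the DNA repair gene Ercc1 (CTCF 12.39 and 11.17, RAD21 8.86 and 5.26) and one within Pbx3, which encodes a homeodomain partner of Hox proteins (CTCF 7.70 and 7.22, RAD21 5.52 and 6.73).

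Of the 8 strongest RAD21 sites missing from Del(CBS1-5), 4 had CTCF in both Del(CBS1-5) libraries. Near Cdkl2, RAD21 folds of 7.63 and 11.26 in Del(CBS1-4) stood against no peak in Del(CBS1-5), while 12 of 12 other libraries had one and the CTCF folds in Del(CBS1-5) were 8.67 and 11.52. A site near Gm13691 (RAD21 11.28 and 10.19) had CTCF folds of 11.03 and 6.47 in Del(CBS1-5). Of all 7500 lost RAD21 sites, 57.8% had a CTCF peak in all 4 CTCF libraries and 1.57% had lost CTCF too. At RAD21 sites found in all 4 libraries these shares were 98.9% and 0.00652%. CTCF was in none of its 4 libraries at 21.7% of the lost RAD21 sites, beside 0.15% of those in all 4. The intervals that remained in Del(CBS1-5) lay at CTCF sites of the 2 alleles in 95.14% and 97.4% of cases, against 89.49% and 83.75% in Del(CBS1-4). That difference of 9.65 points had an exact permutation p of 0.3333, the smallest possible, and turned to −1.42 with equal-length lists.

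Differences in strength were tested at sites with a peak in every library of the antibody, on normal scores of the ranks of fold enrichment within each library. A site missing from any library is therefore not in this test. A score unit is 1 SD of the sites within a library, and each difference is Del(CBS1-5) minus Del(CBS1-4). For CTCF 16 of 31658 sites (0.0505%) were called at an adjusted p under 0.05 in limma, 11 higher and 5 lower in Del(CBS1-5), and 2483 had an unadjusted p under 0.05 where 1583 are expected by number alone. For RAD21 84 of 12959 sites (0.648%) were called, 24 higher and 60 lower, with 2051 under 0.05 where 648 are expected. The split of CTCF calls was 60 higher and 68 lower with ranks of −log10 p, and that of RAD21 calls 26 and 26 with centred log2 folds. The CTCF calls numbered 33 without the first and 42 without the second Del(CBS1-4) library, and 10 without the second Del(CBS1-5) library. Of the calls 1 CTCF and 6 RAD21 sites lay on chromosome 2, none in the Hoxd window.

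Most CTCF calls were not differences of one summit. At 14 of the 16 called CTCF sites at least 1 of the 4 libraries took its value from a summit more than 150 bp away, beside 4.02% of the CTCF sites tested. At 7 of the 84 called RAD21 sites this was so, beside 0.872%. When only sites with a summit within 150 bp in every library were tested, 0 of 29268 CTCF sites passed in limma, with 2215 at an unadjusted p under 0.05 and a smallest adjusted p of 0.0781. Of 12554 RAD21 sites 73 passed, 19 higher and 54 lower, each of them also among the 84.

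The CTCF call with the largest difference, 333 bp from Eid2b, shows the pattern. Both Del(CBS1-4) libraries had a summit 47 bp from the site, with folds of 4.00 and 4.30. In the Del(CBS1-5) libraries the covering peak had its nearest summit 281 and 293 bp away, with folds of 18.66 and 20.22 (3.57 ± 0.42 score units, limma, adjusted p = 0.000132). Here a minor summit was called in one allele and not in the other. The calls at Gm35701, Efna1, which encodes the ligand ephrin-A1, Gm51783 and Alk, a receptor tyrosine kinase gene, had the same arrangement, with summits 2 to 38 bp away in Del(CBS1-4) and 266 to 484 bp away in Del(CBS1-5). At Rasgef1c, Myzap and Ptgs1 the summits were 4 to 23 bp away in Del(CBS1-5) and 316 to 423 bp away in Del(CBS1-4). At Dmrt3 they were 169 and 0 bp away against 307 and 320. Values at these 9 sites are therefore not read as stronger or weaker binding.

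The 2 called CTCF sites with near summits were lower in Del(CBS1-5). Near Gm9630 the percentiles were 95.3 and 95.7 against 31.1 and 42.6 (−2.03 ± 0.34). Within Fam163a the score difference was −2.01 ± 0.35 for CTCF and −1.77 ± 0.42 for RAD21 (limma, adjusted p = 0.0159 and 0.0427). It was also the 1 called CTCF site that could be tested for RAD21. Among sites with near summits alone neither CTCF difference passed (−2.05 ± 0.34 and −2.03 ± 0.35, limma, adjusted p = 0.0781 at both), and that at Gm9630 did not pass without any one of the 4 libraries (adjusted p up to 0.177).

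Of the 84 RAD21 calls, Del(CBS1-5) was the allele farther from the other libraries at 56 and Del(CBS1-4) at 28. No such count over all RAD21 sites tested stands beside it, so it is not read as a trait of the calls. Among the 10 named below it was Del(CBS1-4) at Mir181c, Gm29895 and LOC115490388, where the other libraries had medians of 62.0, 14.3 and 40.7. The site nearest Gm24242 went from percentiles of 21.2 and 0.9 to 92.6 and 92.7 (3.04 ± 0.60, adjusted p = 0.0261), with a median of 14.1 elsewhere, but its summits lay 11 and 10 bp away in Del(CBS1-4) and 427 and 306 bp away in Del(CBS1-5). A site within Bub1b, a spindle checkpoint kinase gene, rose from 2.9 and 2.8 to 87.6 and 52.1 (2.51 ± 0.47), and one within Pou2f1, which encodes the transcription factor Oct-1, from 3.6 and 0.4 to 30.6 and 74.4 (2.32 ± 0.48; 1 of its summits lay 152 bp away). The site 7659 bp from the microRNA gene Mir181c rose from 22.6 and 21.6 to 86.4 and 97.4 (2.29 ± 0.41). Within Yeats4, a chromatin reader gene, RAD21 fell from 44.1 and 63.6 to 0.4 and 1.8 (−2.49 ± 0.42, adjusted p = 0.0134). It also fell near Gm4954 (−2.46 ± 0.52) and F11r, a junctional adhesion molecule gene (−2.29 ± 0.45), and within LOC115490388 (−2.27 ± 0.48) and Zfp185 (−2.24 ± 0.47). The call near Gm29895 (−2.45 ± 0.47) had summits 179, 188 and 183 bp away in 3 of the 4 libraries. A second call beside it (−1.92 ± 0.48), outside the 10 with the largest change, took the same folds in those 3 libraries, and each was counted. Its summits lay 2 to 27 bp away, and it passed with near summits alone (limma, adjusted p = 0.0495). The other 7 of these 10 sites had near summits and passed with near summits alone (limma, adjusted p from 0.0124 to 0.0288). At none of these 10 sites did CTCF pass the test: its score differences ran from −1.15 to 0.82 at the 8 where it was tested. Over all RAD21 calls with a CTCF test, 66 of 81 had the same sign for CTCF, beside 59.6% of the 12781 sites tested for both. Across RAD21 sites the scores of the 2 Del(CBS1-4) libraries correlated at 0.861 (Pearson) and those of the 2 Del(CBS1-5) libraries at 0.705. With the Del(CBS1-4) libraries the first Del(CBS1-5) library correlated at 0.784 and 0.765, and the second at 0.64 and 0.601. The number of RAD21 calls rested on single libraries: it was 10 without the first and 1 without the second Del(CBS1-4) library, and 501 without the first and 8 without the second Del(CBS1-5) library. All 10 sites named did not pass without the second Del(CBS1-4) library, and 8 of them, Bub1b and Yeats4 being the others, not without the second Del(CBS1-5) library (adjusted p up to 0.403 over the alternatives).

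**Figure D4:**
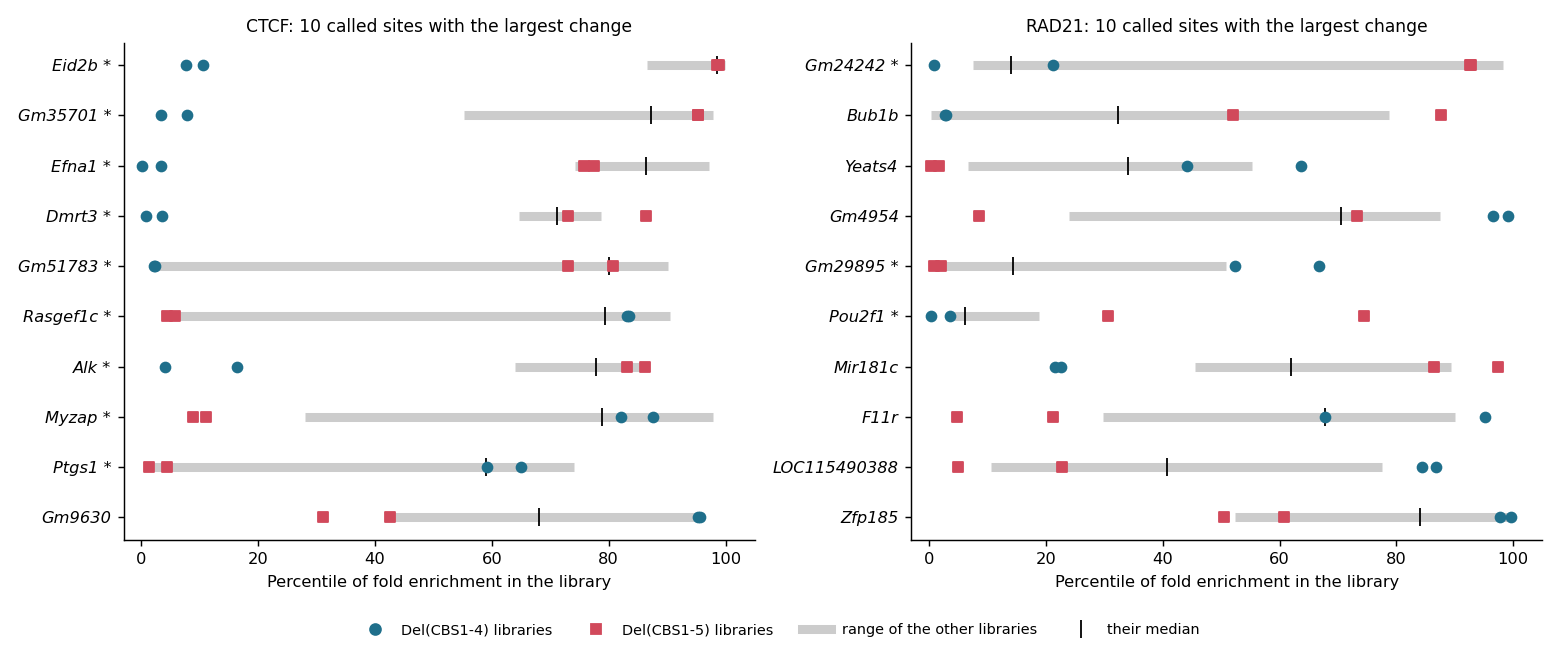
Percentile of fold enrichment in each Del(CBS1-4) library (circles) and Del(CBS1-5) library (squares) at the 10 called sites with the largest change for CTCF (left) and RAD21 (right), named by the gene that holds the site or lies nearest; grey bars give the range of the other libraries and black ticks their median. Stars mark sites where at least 1 of the 4 libraries took its value from a summit over 150 bp away, which holds for the 9 CTCF sites other than Gm9630 and for 3 of the 10 RAD21 sites.

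Gene lists of the trunk were read by counts, and each site within 5 kb of a listed gene was counted. No site of any of the 9 gene lists or the 2 flanking landscapes was called for either antibody, beside 0.0505% of all CTCF and 0.648% of all RAD21 sites tested. At such shares 0 calls in lists of this size do not set these genes apart. In the other Hox clusters 11 of 15 tested CTCF sites and 6 of 8 RAD21 sites were higher in Del(CBS1-5), with median differences of 0.33 and 0.11, beside 49.7% and 51.2% of all sites. The CTCF sites at 52211562 and 52211726, within Hoxa3, took the same Del(CBS1-5) folds (10.85 and 15.76), and each was counted (1.28 and 1.21). Of 15 RAD21 sites of Del(CBS1-4) in these clusters 0 were lost. Next to Hoxa13, the counterpart of Hoxd13, CTCF stood at 86.9 and 68.5 against 42.7 and 53.3 (−0.85 ± 0.31, adjusted p = 0.502) and RAD21 at 92.1 and 80.0 against 67.3 and 56.2 (−0.83 ± 0.41, adjusted p = 0.323). The groups did not overlap for either antibody.

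In the somite and muscle list the median CTCF difference was 0.40 over 13 sites. The sites at 33953236 and 33953026, near Twist1, took the same Del(CBS1-5) folds (10.85 and 9.81), and each was counted (1.05 and 0.92). In this list 0 of 16 CTCF sites of Del(CBS1-4) were lost and 3 of 19 of Del(CBS1-5) were gained. For RAD21 5 of 15 sites were lost, at Meox1, Meox2 (2 sites), Myod1 and Tbx6, transcription factor genes of somites and muscle, beside 24.0% of all RAD21 sites. All 5 were weak, at percentiles of 0.2 to 4.5 in Del(CBS1-4), and across the genome loss was more frequent among weak sites. The Meox1 site was in 0 of 12 other libraries, and 1 Meox2 site had a summit 156 bp away. In the neural tube list the median was 0.02 over 14 CTCF sites and 0.36 over 7 RAD21 sites. RAD21 at Nkx2-2, a gene of ventral progenitors, was at 82.2 and 58.2 against 20.4 and 26.1 (−1.30 ± 0.39, adjusted p = 0.101, and 0.036 with ranks of −log10 p), and near Irx3 at 13.8 and 13.7 against 41.0 and 75.0 (1.31 ± 0.44, adjusted p = 0.141, and 0.05 without the first Del(CBS1-5) library). Lost RAD21 sites were 2 of 11 in the neural tube list, 4 of 16 in the limb and lateral plate list and 5 of 39 in the imprinted domains. Among limb and lateral plate genes the medians were −0.06 over 17 CTCF sites and 0.29 over 6 RAD21 sites. The imprinted domains had medians of −0.05 over 36 CTCF sites and 0.01 over 21 RAD21 sites. At H19, the gene beside the imprinting control region that CTCF binds, one site was at 16.9 and 13.1 against 4.6 and 0.6 (−1.07 ± 0.46, adjusted p = 0.567).

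In the lists of other cell types a trunk can hold, the CTCF medians were −0.06 over 10 heart sites, 0.01 over 11 blood sites and 0.20 over 9 endoderm and liver sites. The RAD21 medians were 0.00 over 5, 0.81 over 3 and −0.03 over 4 sites. Of the 15 RAD21 sites of the blood list found in both Del(CBS1-4) libraries, 7 were lost, beside 24.0% of all such sites, 2 of 7 in the endoderm and liver list and 0 of 10 in the heart list. Of the 7 lost blood sites, 6 lay in the globin domains, within or near Nprl3, Hba-x, Hbb-bh1 and Hbb-y, and 1 in Lmo2. The 6 had percentiles of 0.2 to 9.4 in Del(CBS1-4), apart from a 35.2 at Hba-x that belongs to a summit 384 bp away. Of the 12 RAD21 libraries of other alleles, 5 and 3 held the Nprl3 sites and 2 and 0 the Hbb-bh1 sites. The Hba-x and Hbb-y sites were in 2 each, and the Lmo2 site was in 7.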

How the data were processed

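The 30 libraries were deposited as 1 narrowPeak list each (mm10, per the submitters' processing notes), with positions given here counted from 1. Per those notes the authors' tools were MACS2 2.1.1.20160309 (a peak caller), Bowtie2 2.3.5 (an aligner), cutadapt 1.16 (a read trimmer), SAMtools 1.9, bedtools 2.27.1 and Picard 2.19.0, and options are not given in the sources used here. The deposited columns are a score, which was not used, a ratio (fold enrichment at the summit over local background), −log10 p and −log10 q, and the summit offset. Peaks were called per library, so a fold enrichment serves below as a rank among the peaks of its own library, or as a plain description. No read counts are in the lists, so depth is unknown.

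Summits of the 4 libraries of an antibody within 150 bp were linked, and a site is their median. A library holds a site that one of its peaks covers, and the peak with the nearest summit gives the value. Sites on the autosomes and on X and Y were kept. The percentile of a fold is its place among the folds, in the same library, of the sites with a peak in every library of the antibody. Rank changes were fitted with limma 3.58.1 (R 4.3.3; trend and robust, all alleles of the antibody in 1 fit with 7 residual degrees of freedom for CTCF and 9 for RAD21), with Benjamini-Hochberg adjustment over all sites tested. The spread of an allele with a single library was taken from the others. P-values measure the spread between these embryos' libraries. Tested on simulated data, the CTCF fit recovered 12%, 30%, 74% and 90% of 50 planted shifts of 1, 1.5, 2 and 3 score units, with 2 false calls, and the RAD21 fit 4%, 34%, 64% and 96% with 2. The simulated noise was normal and independent, with the same spread in every library at a site. It held no deviation of a whole library, so these false calls do not give the error rate in the real libraries. A RAD21 interval counted as at a CTCF site when within 150 bp of one found in at least 1 of the 4 CTCF libraries. Exact permutation tests were 2-sided.

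The members, gene lists and tests were chosen with earlier results of these data known. Named were every site of the Hoxd window with a peak in the 8 libraries; sites of the flanking landscapes; the 10 called sites per antibody with the largest change; the 8 strongest lost and gained sites per antibody by mean fold; and up to 4 genes per list by largest change. Of these the report prints those its results turn on. Fam163a, Pbx3, Mtx2, the lost somite sites and the lost CTCF sites ranked by near summits were chosen after their values were seen. Nespas was not matched in the gene table. Genes and promoters are RefSeq GRCm38.p6. Everything else ran in Python 3.11.15 with pandas 2.3.3, numpy 2.4.6, matplotlib 3.10.9 and scipy 1.17.1. Alternatives changed the detection rule, the peaks kept, the link distance, the measure ranked, the fit, the list distance and the libraries; counting lost sites that every other library holds, the rank by the lower fold, the limit of 150 bp to the summit and the changes shared by both antibodies were added after seeing the data.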

Additional observations from a re-analysis of the deposited data

Results flagged for a closer look

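In 2 places of the Hoxd window 1 of the 4 WT RAD21 libraries stood far from the other 3. At 74663789, in the stretch between Evx2 and Hoxd13, the third WT library was at percentile 19.8 while the others were at 1.1, 2.7 and 3.3. At the site nearest Hoxd13, and at its second summit within the same peak, the fourth WT library was at 32.0 while the others were at 79.8, 88.0 and 85.9. The WT libraries enter the spread of the limma fit and the set of sites over which percentiles are taken, besides the WT means printed. About 1 in 20 groups would stand out this way by chance.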

How the results depend on the processing

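The loss of RAD21 at CBS5 held under each detection rule and without each library. So did the loss of CTCF, but CBS5 was placed by that CTCF pattern, so this is no separate check. Lost CTCF sites numbered 437 when a peak within 250 bp sufficed and 811 with a −log10 q of at least 10, and gained ones 3560 with equal-length lists; lost RAD21 sites 3631 and 1398 and gained ones 9 and 492 under the last 2 rules. Without 1 library these counts ran from 1523 to 5331, 11331 to 24066, 7904 to 17135 and 115 to 1743. In the Hoxd window the CTCF counts were 3 lost with a summit within 100 bp, 2 gained with the q limit, and 2 lost and 2 gained with equal-length lists; without 1 library 1 to 2 and 0 to 2, and for RAD21 1 to 3 lost. Called CTCF sites were 128 with ranks of −log10 p and 232 with the 4 libraries alone (162 higher, 70 lower), and 10 to 42 without 1 library. Called RAD21 sites were 189, 52 with centred log2 folds (26 higher, 26 lower), 14 without trend and robust fitting, 5 with the 4 libraries alone, and 1 to 501 without 1 library. RAD21 at CTCF sites turned to −1.42 points with equal-length lists. Within 50 kb, 1 RAD21 site of the blood list was called. Replicate numbers are in the labels, but same-numbered libraries did not deviate together (correlations −0.086 and −0.049 across sites). With summits within 150 bp in the libraries compared, 453 CTCF sites were lost and 0 called. With the replicate number as a block, 24 CTCF and 45 RAD21 sites were called. The cause of these changes was not tested. With 2 libraries an allele no exact test can pass.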

Other observations

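Sites that changed together for both antibodies lay near each other in 2 instances among the 30 strongest lost and the 15 gained sites, a reading made after the values were seen. On chromosome 5, a site within Akap9, which encodes a centrosomal scaffold protein, and one 179 bp from Mterf1b lay 152 kb apart and were both lost. Their CTCF folds in Del(CBS1-4) were 6.30 and 7.92 at Akap9 and 8.06 and 7.27 at Mterf1b, their RAD21 folds 5.91 and 4.59, and 6.49 and 7.24. Both had a CTCF peak in 9 of the 10 other CTCF libraries. On chromosome 15, sites near Apol7c and Apol7e, genes of the apolipoprotein L family, lay 161 kb apart and were both gained. Their CTCF folds in Del(CBS1-5) were 9.11 and 8.79 and 16.87 and 20.63, and each had a peak in 3 of 3 WT, 3 of 3 Del(CBS1), 1 of 2 Del(CBS1-3) and 0 of 1 Del(CBS2) CTCF libraries.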
